A study of Rattus norvegicus with 12 samples.

Results

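Ductal cell genes were followed in RNA of pancreatic islets of rats with growth restriction before birth and of control rats. The 9 genes were Sox9, Cftr, Spp1, Muc1, Krt19, Krt7, Cldn4, Prom1 and Tspan8. They were taken from the deposited count table by symbol, 9 of 25888 symbols in all, and a symbol listed with more than 1 transcript was read from that with the highest mean count. All 9 passed the filter on low counts that left 20733 transcripts of 17361 symbols for testing. The rule used no measured difference between groups, but the genes were chosen with earlier results of these data known.

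The animals were Sprague Dawley rats. Intrauterine growth restriction (IUGR) was produced by tying both uterine arteries of the dam at embryonic day 18, and control litters were reduced to 8 pups. The 4 groups were IUGR at 2 weeks, control at 2 weeks, IUGR at 10 weeks and control at 10 weeks of age, with 3 libraries each. Islets had been freed by collagenase perfused through the duct and separated on a Histopaque gradient, so they can carry exocrine tissue with them. The labels call the libraries biological replicates and do not say whether animals were pooled, from which litters they came, or of which sex they were, so p-values measure the spread between these libraries.

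Duct cells line the tree that carries the enzymes of acinar cells out of the pancreas, and they add bicarbonate and water to the juice. SOX9, with ONECUT1, is part of the transcription factor network of pancreatic duct cells, and CFTR is the apical chloride and bicarbonate channel of the same cells. Keratins, claudins, mucins and osteopontin are used as duct markers in the pancreas, but several of them are also made by other epithelia. In bulk RNA fewer cells of a type and less RNA per cell cannot be told apart.

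Library totals ran from 44.0 to 51.2 M counts (M stands for mega) in IUGR islets at 2 weeks, from 44.4 to 45.3 M in controls at 2 weeks, from 30.4 to 35.0 M in IUGR islets at 10 weeks and from 39.6 to 64.2 M in controls at 10 weeks. Levels below are CPM, counts scaled to a common library size after scaling by trimmed mean of M values (TMM) factors. They are not divided by transcript length, so levels are compared between libraries and not between genes. The TMM factors were 1.36 to 1.40 in IUGR islets and 0.771 to 1.15 in controls at 2 weeks. At 10 weeks they were 1.16 to 1.18 in IUGR islets and 0.440 to 1.07 in controls. The libraries differed most in acinar RNA. A list of 32 acinar markers (digestive enzymes and their transcription factors) took 6.43 ± 2.41% of the counts in IUGR islets against 27.7 ± 11.2% in controls at 2 weeks, and 1.34 ± 0.827% in IUGR islets against 33.4 ± 17.4% in controls at 10 weeks (SD, n = 3 each). At 10 weeks the control libraries themselves stood apart, from 13.4% in replicate 2 to 45.3% in replicate 3, and 2 of the 3 lay above 40%. By the edgeR test used below, 5 of the 32 markers passed as lower in IUGR islets at 2 weeks, against 2.21% of all transcripts. At 10 weeks 31 of the 32 markers passed as lower, against 15.5% of all transcripts. All 32 had counts in every group.

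The 9 genes did not move as 1 block. Summed over the 9, the level ranged from 155 to 210 CPM in IUGR islets and from 223 to 336 CPM in controls at 2 weeks. At 10 weeks the sum ranged from 142 to 223 CPM in IUGR islets and from 194 to 226 CPM in controls. As an unscaled share of all counts the 9 genes took 0.0215 to 0.0285% in IUGR islets against 0.0256 to 0.0264% in controls at 2 weeks, so without the scaling those groups overlapped. The unscaled share at 10 weeks was 0.0165 to 0.0264% in IUGR islets and 0.00994 to 0.0208% in controls. Over the 12 libraries the log2 CPM of Muc1 spanned 7.51, that of Sox9 3.60, of Cftr 3.45 and of Spp1 3.17. The other genes spanned less, with 1.73 for Tspan8, 1.45 for Cldn4, 1.28 for Krt19, 1.27 for Krt7 and 0.79 for Prom1.

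**Figure D1:**
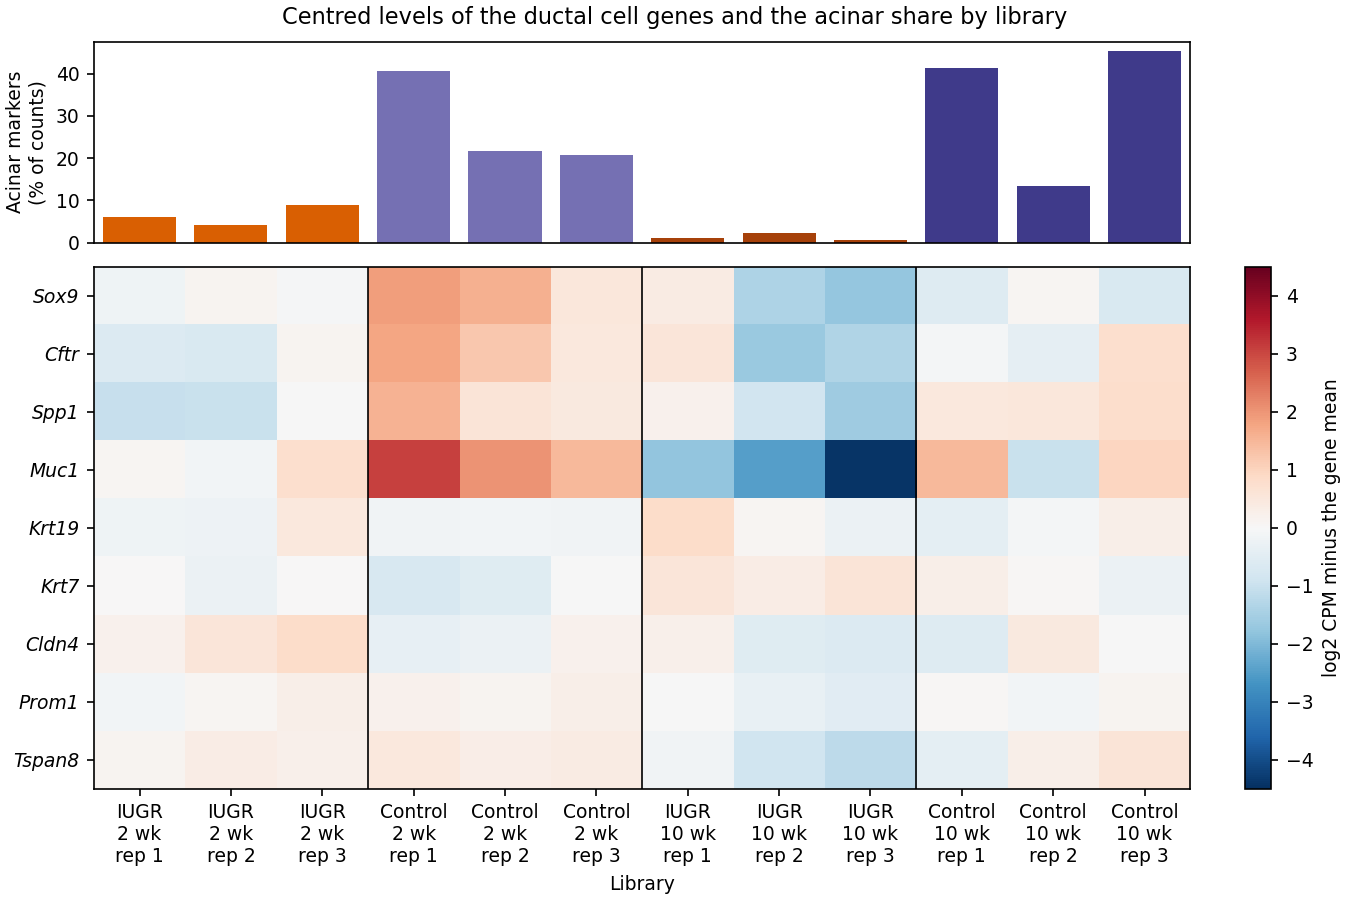
Colours give the log2 CPM of the 9 ductal cell genes, each centred on its mean over the 12 libraries, with 1 column per library, and bars above give the share of counts in acinar markers. The widest range is that of Muc1, from 3.08 in control replicate 1 at 2 weeks down to -4.43 in IUGR replicate 3 at 10 weeks, while Prom1 spans 0.79.

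By the edgeR quasi-likelihood test, with p-values adjusted over all transcripts, 0 of the 9 genes passed the threshold of 0.05 in IUGR against control islets at 2 weeks, where 3.88% of all transcripts did (1.66% higher and 2.21% lower). At an unadjusted p under 0.05 there were 5 of 9 (Sox9, Cftr, Spp1, Muc1 and Cldn4), and 5939 of the 20733 transcripts. DESeq2 called 4 of the 9 (Sox9, Cftr, Spp1 and Muc1, all lower in IUGR islets), against 16.1% of the transcripts it gave an adjusted p. At 10 weeks 2 of 9 passed, Muc1 and Tspan8, both lower in IUGR islets, where 27.9% of all transcripts passed and 15.5% passed as lower. DESeq2 added Spp1 at that age (adjusted p = 0.0310). The median log2 fold change of the 9 was -0.16 at 2 weeks and -0.30 at 10 weeks, against 0.05 and -0.01 over all transcripts. The difference between the effects of IUGR at the 2 ages passed for 0 of the 9, against 14.3% of transcripts (3.97% higher and 10.4% lower). At an unadjusted p under 0.05 that difference had 1 of the 9, Cldn4, and 6441 transcripts, and DESeq2 called 0 of the 9.

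**Figure D2:**
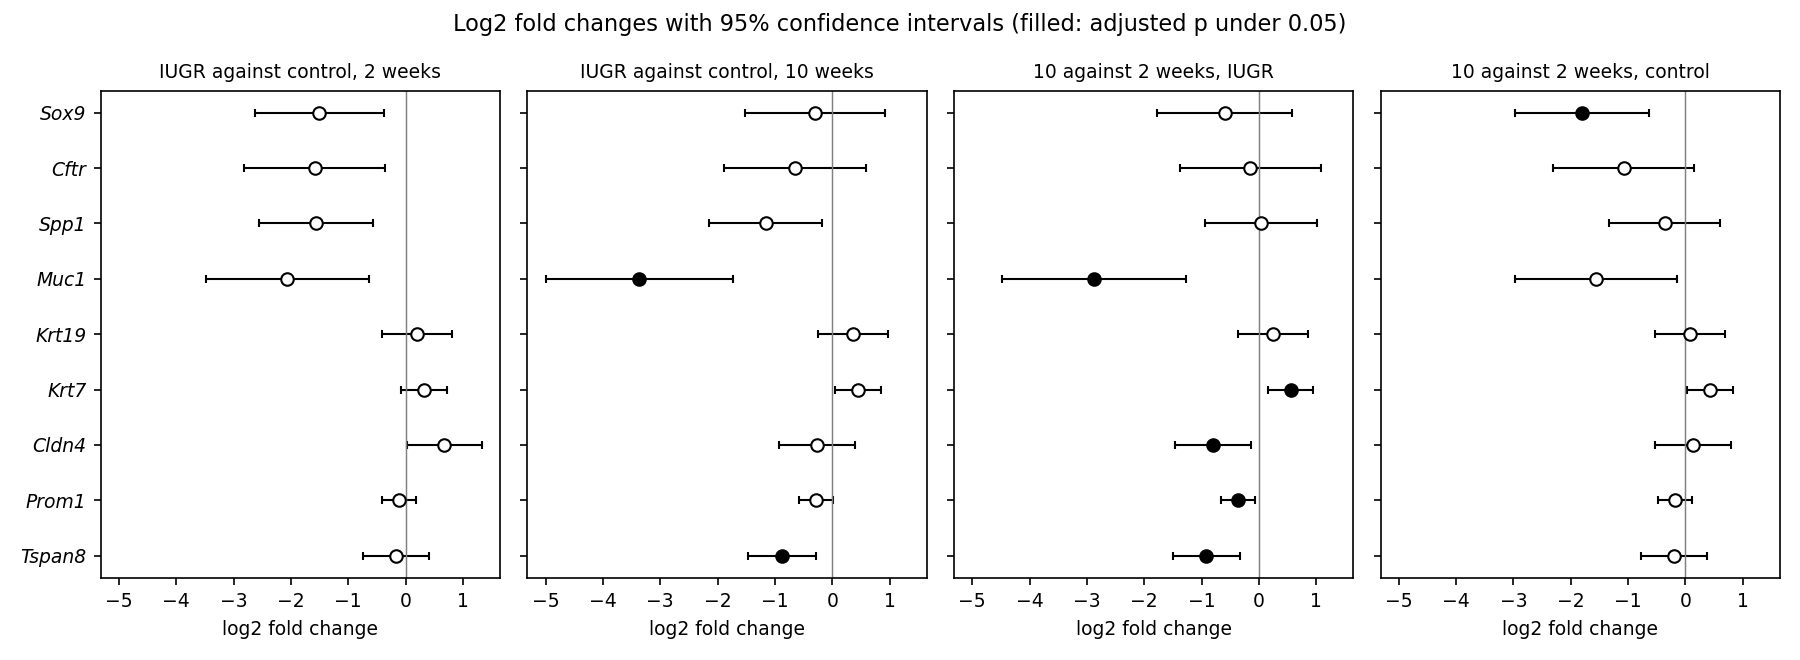
Log2 fold changes of the 9 ductal cell genes with 95% confidence intervals for IUGR over control at both ages and for 10 over 2 weeks in both conditions. Filled points passed the adjusted threshold of 0.05, and the interval of Muc1 at 10 weeks runs from -5.00 to -1.74.

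Sox9, Cftr and Spp1 were highest in the 2-week controls. Sox9 encodes the SOX family transcription factor that marks duct cells in the adult pancreas and progenitors in the embryo. It had 1.09, 1.35 and 1.20 CPM in IUGR islets at 2 weeks (replicates 1 to 3 in order, here and below), against 4.69, 3.89 and 1.78 CPM in controls of that age. The groups did not overlap, and the third control library lay closest to the IUGR libraries. The log2 fold change was -1.50 ± 0.51 (SE), with an adjusted p of 0.0962. At 10 weeks Sox9 had 1.64, 0.448 and 0.346 CPM in IUGR islets and 0.824, 1.34 and 0.767 CPM in controls. These groups overlapped, and IUGR replicate 1 was the highest of the 6 libraries while the other IUGR libraries were the lowest. The counts behind Sox9 were few, from 14 to 199 per library.

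Cftr had 8.23, 7.71 and 13.6 CPM in IUGR islets at 2 weeks, against 42.8, 28.8 and 17.3 CPM in controls. All 3 IUGR libraries were below all 3 controls, with a log2 fold change of -1.59 ± 0.56 and an adjusted p of 0.105. At 10 weeks it had 18.1, 3.89 and 4.82 CPM in IUGR islets and 11.7, 9.38 and 21.0 CPM in controls, a log2 fold change of -0.65 ± 0.56 (adjusted p = 0.414). IUGR replicate 1 lay among the controls and the other IUGR libraries lay below them.

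Spp1 encodes osteopontin, a secreted phosphoprotein. It had 18.5, 18.9 and 37.4 CPM in IUGR islets at 2 weeks, against 113, 57.6 and 51.7 CPM in controls. At 10 weeks it had 43.8, 20.8 and 12.6 CPM in IUGR islets and 53.5, 53.8 and 65.3 CPM in controls. The groups did not overlap at either age and IUGR was lower at both. At 10 weeks this rests on the TMM factors, since the unscaled shares of all counts overlapped. IUGR replicate 1 had 1572 Spp1 counts of 30.4 M, against 1688 of 64.2 M in control replicate 1. The log2 fold changes were -1.57 ± 0.45 at 2 weeks (adjusted p = 0.0671) and -1.16 ± 0.45 at 10 weeks (adjusted p = 0.0748), so neither passed. Groups that did not overlap with IUGR lower were found for 16.8% of all transcripts at 2 weeks (38.7% in either direction), where Muc1 was the fourth such gene of the 9, and for 18.9% at 10 weeks, where Muc1 and Spp1 were the 2 such genes. Macrophages also make osteopontin. The 13 tested macrophage markers summed to 91.2 to 129 CPM in IUGR islets against 46.3 to 93.0 CPM in controls at 2 weeks. Past edgeR's threshold there were 0 of the 13 (1 at an unadjusted p under 0.05, 0 by DESeq2), against 3.88% of all transcripts. At 10 weeks the 13 markers summed to 62.6 to 98.4 CPM in IUGR islets against 72.6 to 186 CPM in controls. There 4 of the 13 passed as lower, against 15.5% of all transcripts. None of them was at 0 in any group, and their part in the Spp1 levels was not tested. The table listed Spp1 as 2 transcripts whose counts differed by at most 2 in any library, so their reads cannot be assigned to either transcript.

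**Figure D3:**
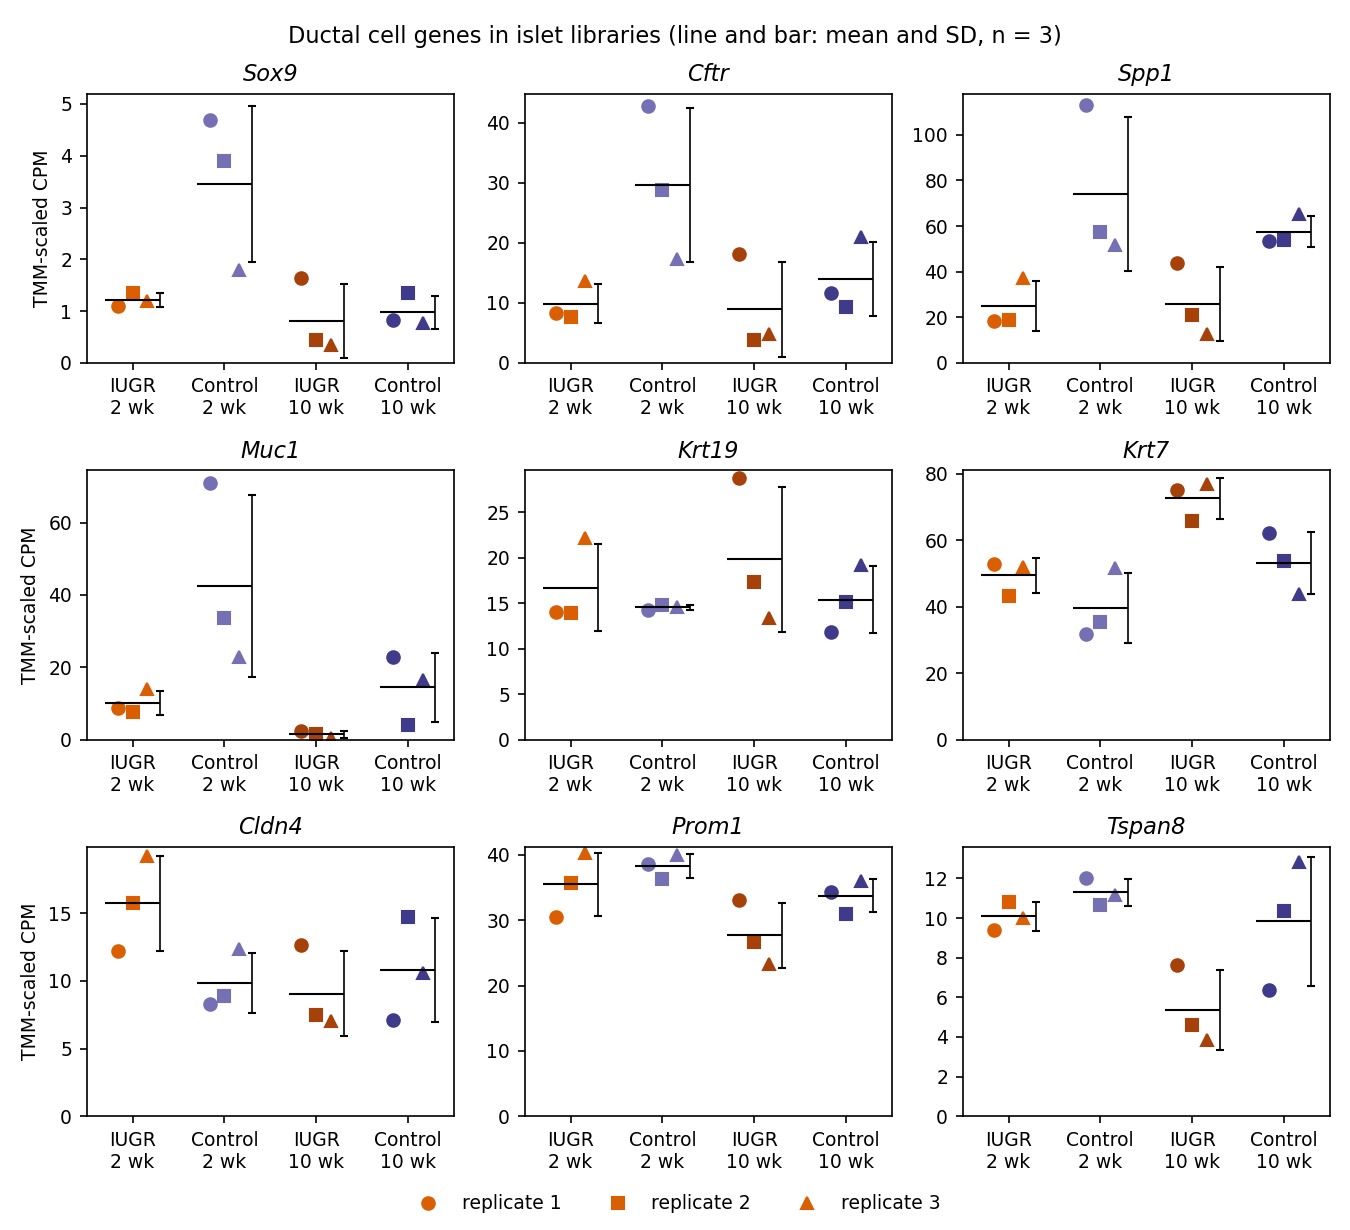
CPM of each of the 9 ductal cell genes by library, on linear axes from 0, in the 4 groups with the IUGR group left of its control at each age. Lines mark group means and bars the SD (n = 3). Sox9, Cftr, Spp1 and Muc1 are highest in controls at 2 weeks, while Krt7 is highest in IUGR islets at 10 weeks.

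Spp1 and Cftr were also set against Krt19, the keratin of simple duct epithelium, as ratios of counts that need no scaling factor. Spp1 counts were 1.32 to 1.68 times those of Krt19 in IUGR islets at 2 weeks and 3.55 to 7.91 times in controls. At 10 weeks the ratio was 0.937 to 1.52 in IUGR islets and 3.41 to 4.53 in controls. The ratio of Cftr to Krt19 counts was 0.555 to 0.613 in IUGR islets and 1.19 to 3.00 in controls at 2 weeks, and 0.224 to 0.629 in IUGR islets and 0.619 to 1.10 in controls at 10 weeks. The Spp1 ratio separated the groups at both ages and the Cftr ratio did so at 2 weeks. These ratios were not tested, and the unequal change within a library does not show which gene of a pair moved.

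Single libraries and the tool decided whether these genes passed at either age. Without control replicate 3 at 2 weeks, Sox9 (-1.82, adjusted p = 0.0491) and Spp1 (-1.77, adjusted p = 0.0472) passed at 2 weeks, in a fit where 11.2% of all transcripts did, against 3.88% with all libraries. Without IUGR replicate 1 at 10 weeks, Cftr (-1.68, adjusted p = 0.0338) and Spp1 (-1.78, adjusted p = 0.0215) passed at 10 weeks, where 18% of all transcripts did. That library was the highest of its group for 8 of the 9 ductal cell genes and for 26 of 49 genes on the other duct lists, against 27.9% of all transcripts. Each other group also had a library highest for a similar number of the 49. These were control replicate 1 (27) and IUGR replicate 3 (26) at 2 weeks, and control replicate 3 (25) at 10 weeks. IUGR replicate 1 at 10 weeks was not the library with the most acinar RNA, since 28 of 32 acinar markers were highest in replicate 2 of that group.

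The promoters of Cftr and Spp1 are shown because these genes had similar profiles over the libraries, and that of Muc1 because its profile was the widest. They are the 250 bases before the annotated start in RefSeq (GRCr8), at chr4:47527379-47527628 on the plus strand for Cftr, chr14:5619805-5620054 on the minus strand for Spp1 and chr2:176933500-176933749 on the plus strand for Muc1. Windows were found for 5 of the 9 genes. The others were Prom1 and Tspan8, which are not shown although their profiles were nearer to each other than those of Cftr and Spp1. Capitals mark exact matches, on either strand, to TATAAA (the TATA box), AACAAT (a SOX core), CACCTG (an E-box), GGGCGG (a GC box) or TGACGT (a CRE core), none of which overlapped another.
Cftr: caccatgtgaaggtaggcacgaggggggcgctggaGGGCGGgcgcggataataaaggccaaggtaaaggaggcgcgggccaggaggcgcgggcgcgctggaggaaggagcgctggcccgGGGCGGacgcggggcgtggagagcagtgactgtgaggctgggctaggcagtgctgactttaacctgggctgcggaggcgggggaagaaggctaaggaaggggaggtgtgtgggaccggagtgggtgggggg
Spp1: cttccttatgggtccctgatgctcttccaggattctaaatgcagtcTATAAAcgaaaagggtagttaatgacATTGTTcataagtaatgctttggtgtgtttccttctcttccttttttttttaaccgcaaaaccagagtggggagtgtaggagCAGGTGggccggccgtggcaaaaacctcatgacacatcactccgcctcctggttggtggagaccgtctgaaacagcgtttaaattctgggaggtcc
Muc1: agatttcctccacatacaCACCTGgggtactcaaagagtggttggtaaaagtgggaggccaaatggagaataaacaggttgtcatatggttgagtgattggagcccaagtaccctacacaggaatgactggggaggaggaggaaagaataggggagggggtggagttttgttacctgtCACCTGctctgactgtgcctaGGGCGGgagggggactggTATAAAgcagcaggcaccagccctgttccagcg
The Cftr window held 2 GC boxes, which 30.5% of 33469 windows of this length held at least once. The Spp1 window held the TATA box letters at 204 bases before the start, the SOX core at 178 and the E-box at 96. Those letters occurred in 12.9%, 10.3% and 15.9% of windows. The Muc1 window held a TATA box 33 bases before the start, a GC box at 51 and E-boxes at 72 and 232. TGACGT, held by 6.95% of windows, was in none of these 3 windows. A match is a description of the letters and not a bound site.

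Muc1, the transmembrane mucin of the apical surface of ducts and other epithelia, fell in IUGR islets at 10 weeks. It had 2.42, 1.44 and 0.346 CPM in IUGR islets of that age (87, 58 and 14 counts), against 22.8, 4.11 and 16.4 CPM in controls. The groups did not overlap, and the lowest control was replicate 2, the control with the least acinar RNA. The level was 10.3 times lower in IUGR islets, a log2 fold change of -3.37 ± 0.74 (adjusted p = 0.00887). At 2 weeks Muc1 had 8.77, 7.71 and 14.0 CPM in IUGR islets, against 71.0, 33.6 and 23.0 CPM in controls. These groups did not overlap either, with a log2 fold change of -2.06 ± 0.65 and an adjusted p of 0.0825. The difference between the ages was -1.31 ± 0.95 (adjusted p = 0.383).

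Muc1 followed the acinar share in part. Within both 2-week groups the libraries stood in the same order by acinar share and by Muc1, with replicate 1 highest in controls and replicate 3 in IUGR islets. This was not particular to Muc1. Cftr stood in that order in both 2-week groups, Sox9 and Spp1 in the controls alone and Krt19 in the IUGR islets alone. Within both 10-week groups the library with the lowest acinar share had the lowest Muc1, replicate 2 in controls and replicate 3 in IUGR islets. Within both 10-week groups the library with the highest acinar share was not the one with the highest Muc1, which was replicate 1 in each. In controls Muc1 averaged 14.4 ± 9.48 CPM at 10 weeks and 42.5 ± 25.2 CPM at 2 weeks (SD, n = 3 each), while the mean acinar share given above was higher at 10 weeks. In a fit with the acinar markers' mean log2 CPM as covariate, the 10-week log2 fold change of Muc1 was 1.39 ± 0.74 (adjusted p = 0.231), opposite in sign. Without the 2 control libraries above 40% acinar share it was -1.55 (adjusted p = 0.187). With each library left out in turn it stayed between -4.00 and -2.82. At 2 weeks Muc1 passed in the fit without those 2 controls (-2.03, adjusted p = 0.0452) and in that without control replicate 2 at 10 weeks (-2.11, adjusted p = 0.0354). The covariate did not overlap between the conditions. It was 7.37 to 8.42 in IUGR islets against 9.85 to 11.3 in controls at 2 weeks. At 10 weeks it was 4.84 to 6.34 against 9.01 to 11.8. A fit with it therefore cannot separate condition from acinar level, here and below. The part of acinar RNA in the result was not tested.

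The keratins Krt19 and Krt7 were not lower in IUGR islets. Krt19 had 14.1, 13.9 and 22.2 CPM in IUGR islets against 14.3, 14.8 and 14.6 CPM in controls at 2 weeks. At 10 weeks it had 28.8, 17.3 and 13.4 CPM in IUGR islets against 11.8, 15.2 and 19.2 CPM in controls. The groups overlapped at both ages, and the 95% interval of the log2 fold change ran from -0.41 to 0.81 at 2 weeks and from -0.25 to 0.98 at 10 weeks.

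Krt7, a keratin of simple epithelia, had 53.0, 43.4 and 52.0 CPM in IUGR islets against 31.9, 35.4 and 51.5 CPM in controls at 2 weeks. At 10 weeks it had 75.3, 65.7 and 76.9 CPM in IUGR islets against 62.1, 53.7 and 43.7 CPM in controls. Only at 10 weeks did the groups not overlap, with IUGR higher, as for 21.3% of transcripts. The log2 fold change there was 0.45 ± 0.18 (adjusted p = 0.0845), and it passed without control replicate 3 at 2 weeks (0.45, adjusted p = 0.0334) or without control replicate 1 at 10 weeks (0.62, adjusted p = 0.0358). At 2 weeks it was 0.32 ± 0.18 (adjusted p = 0.261) and passed without control replicate 3 of that age (0.55, adjusted p = 0.0467). A list of islet endocrine markers had its highest summed level in the same group as Krt7, with 197193 to 207277 CPM in IUGR islets against 103506 to 151334 CPM in controls at 10 weeks, and 54998 to 71220 CPM in IUGR islets against 35293 to 66145 CPM in controls at 2 weeks. Of the 16 endocrine markers 8 passed as higher in IUGR islets at 10 weeks, against 12.4% of all transcripts. At 2 weeks 1 of these markers passed as higher, against 1.66% of all transcripts. Whether that bears on Krt7 was not tested.

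Cldn4, a tight junction claudin, had 12.2, 15.8 and 19.2 CPM in IUGR islets against 8.27, 8.92 and 12.3 CPM in controls at 2 weeks, a log2 fold change of 0.67 ± 0.30 (adjusted p = 0.165). At 10 weeks it had 12.7, 7.45 and 7.02 CPM in IUGR islets and 7.13, 14.7 and 10.6 CPM in controls. The groups overlapped at both ages, at 2 weeks by 1 pair of libraries that differed by little. The difference between the ages was -0.94 ± 0.42 (adjusted p = 0.159).

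Prom1, the pentaspan membrane protein prominin-1 of apical protrusions, had 30.6, 35.7 and 40.2 CPM in IUGR islets against 38.6, 36.3 and 39.996 CPM in controls at 2 weeks, and 33.0, 26.7 and 23.3 CPM in IUGR islets against 34.3, 31.0 and 36.0 CPM in controls at 10 weeks. Its log2 fold change was -0.29 ± 0.13 at 10 weeks (adjusted p = 0.131), and it passed without IUGR replicate 1 at 10 weeks (-0.43, adjusted p = 0.0431).

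Tspan8, a tetraspanin of epithelial membranes, was lower in IUGR islets at 10 weeks after TMM scaling. It had 7.65, 4.61 and 3.83 CPM in IUGR islets against 6.37, 10.4 and 12.8 CPM in controls. The groups overlapped, since IUGR replicate 1 lay above control replicate 1. The call rests on the TMM factors. Unscaled, Tspan8 had 275, 185 and 155 counts in IUGR libraries of 30.4, 34.1 and 35.0 M. Controls had 201, 441 and 351 counts in libraries of 64.2, 39.6 and 62.2 M. As a share of those totals IUGR replicate 1 lay above control replicates 1 and 3. The log2 fold change was -0.88 ± 0.27 (adjusted p = 0.0332). The call was lost without control replicate 2 (-0.80, adjusted p = 0.0786), control replicate 3 (-0.64, adjusted p = 0.137), IUGR replicate 2 (-0.78, adjusted p = 0.104) or IUGR replicate 3 (-0.68, adjusted p = 0.110), all of 10 weeks. It was also lost with the acinar covariate (-0.74, adjusted p = 0.452) and in a fit of the 6 libraries of 10 weeks alone (-0.89, adjusted p = 0.113), and with the replicate number as a block (-0.88, adjusted p = 0.0531). At 2 weeks the values were close, with 9.41, 10.8 and 10.0 CPM in IUGR islets against 12.02, 10.7 and 11.2 CPM in controls.

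The change with age was read within each condition, and the test of its difference between the conditions is the one above, which 0 of the 9 passed. In controls 1 of 9 passed, against 32.3% of all transcripts (17.2% higher and 15.1% lower), and that gene was Sox9. It fell to 0.824, 1.34 and 0.767 CPM at 10 weeks, against 4.69, 3.89 and 1.78 CPM at 2 weeks, a log2 fold change of -1.80 ± 0.53 (adjusted p = 0.0248). The groups did not overlap, as for 41.1% of transcripts (20.6% higher and 20.5% lower at 10 weeks). The call was lost without control replicate 1 at 2 weeks (-1.52, adjusted p = 0.0726), replicate 2 at 2 weeks (-1.70, adjusted p = 0.0687), replicate 1 at 10 weeks (-1.70, adjusted p = 0.0741) or replicate 3 at 10 weeks (-1.65, adjusted p = 0.0746), and without both 10-week controls above 40% acinar share (-1.36, adjusted p = 0.256). Muc1 in controls had a log2 fold change of -1.56 ± 0.64 (adjusted p = 0.0825). It passed with the acinar covariate (-2.11, adjusted p = 0.000582) and without those 2 controls (-3.36, adjusted p = 0.0331). Krt7 in controls passed without control replicate 3 at 2 weeks (0.66, adjusted p = 0.0108), against 0.42 ± 0.18 in all libraries (adjusted p = 0.0930). This comparison and that of IUGR at 2 weeks share the 2-week control libraries.

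In IUGR islets 5 of 9 passed with age, against 56.5% of all transcripts (27.3% higher and 29.2% lower). Krt7 rose to between 65.7 and 76.9 CPM at 10 weeks, against 43.4 to 53.0 CPM at 2 weeks (log2 fold change 0.55 ± 0.18, adjusted p = 0.0216). Muc1 fell to between 0.346 and 2.42 CPM at 10 weeks, against 7.71 to 14.0 CPM at 2 weeks (-2.87 ± 0.73, adjusted p = 0.00611). Tspan8 fell to between 3.83 and 7.65 CPM, against 9.41 to 10.8 CPM (-0.91 ± 0.27, adjusted p = 0.0128). For these 3 genes the ages did not overlap, as was the case for 69.4% of transcripts (33.9% higher and 35.5% lower). Cldn4 fell by 0.80 ± 0.30 on the log2 scale (adjusted p = 0.0401) and Prom1 fell by 0.36 ± 0.13 (adjusted p = 0.0391), with overlap between the ages. Sox9, Cftr, Spp1 and Krt19 did not pass, with log2 fold changes of -0.59, -0.15, 0.04 and 0.25.

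Several of these age calls rest on single libraries. Without IUGR replicate 3 at 10 weeks the 5 calls became 1, Muc1. Without IUGR replicate 2 at 2 weeks, Krt7 (adjusted p = 0.0833), Cldn4 (0.0819) and Prom1 (0.0864) were lost, and without IUGR replicate 2 at 10 weeks Cldn4 (0.128), Prom1 (0.105) and Tspan8 (0.0508) were lost. Without IUGR replicate 1 at 10 weeks Krt7 was lost (adjusted p = 0.0566) and Sox9 passed (-1.60, adjusted p = 0.0129). Cldn4 and Prom1 were lost in addition without IUGR replicate 3 at 2 weeks or control replicate 3 at 10 weeks, Cldn4 without control replicate 2 at 2 weeks, and Prom1 without control replicate 1 or 2 at 10 weeks. With the acinar covariate Cldn4 alone passed (-1.16, adjusted p = 0.0268), against 52.8% of all transcripts in that fit. Cldn4 was also lost without the filter on low counts (adjusted p = 0.0534) and Prom1 in a fit of the 6 IUGR libraries alone (adjusted p = 0.0651).

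By the root mean square difference of centred log2 CPM over the 12 libraries, the ductal cell genes fell into nearer and farther pairs. The nearest pairs were Prom1 and Tspan8 (0.36), Krt19 and Prom1 (0.38), Cldn4 and Prom1 (0.40), Krt19 and Cldn4 (0.44), Krt19 and Krt7 (0.44), and Cldn4 and Tspan8 (0.46). Cftr and Spp1 followed at 0.47, and Sox9 and Cftr were at 0.56. Krt7 and Muc1 were farthest apart, at 2.34. A small value says that 2 genes have similar profiles over these libraries and is in part set by a narrow range.

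Among 11299 symbols searched, the genes with profiles nearest to Sox9 were Shank2 (0.27), Onecut1 (0.29) and Pkhd1 (0.36). Onecut1 encodes a transcription factor and Pkhd1 the cilium protein fibrocystin. Onecut1 had 3.37 ± 0.369 CPM in IUGR islets against 9.72 ± 3.92 CPM in controls at 2 weeks, and 2.06 ± 2.13 CPM in IUGR islets against 2.91 ± 0.293 CPM in controls at 10 weeks. The largest SD relative to the mean was that of the 10-week IUGR islets, as for Sox9. The genes nearest to Cftr were Slc34a2 (0.32), Cyp4f1 (0.36) and Lrrc8e (0.39), and the gene nearest to Spp1 was Plekhs1 (0.30). Nearest to Muc1 were Adam11 (0.41), Lrrc7 (0.51), Matn4 (0.52) and Nr5a2 (0.54), a nuclear receptor that is on in acinar cells. Nr5a2 had 14.3 ± 1.80 CPM in IUGR islets against 42.6 ± 22.0 CPM in controls at 2 weeks, and 2.98 ± 2.25 CPM in IUGR islets against 19.8 ± 9.69 CPM in controls at 10 weeks. Nearest to Krt7 were Znrf4 (0.080), Celf3 (0.087) and Bcl7b (0.098), to Tspan8 Stap2 (0.14), to Cldn4 Gmpr (0.24) and Npy (0.25), and to Krt19 Tm7sf3 (0.21). Nearest to the mean of the 9 were Tfcp2l1 (0.19), Map3k13 (0.21) and Dsp (0.22), of which none passed in IUGR against control at either age.

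Other genes of duct epithelium were read from 5 lists, of which the acinar share of each library above stands beside every count. Of 16 genes of ion and water transport, 0 passed edgeR's test at 2 weeks in IUGR against control (7 at an unadjusted p under 0.05, 2 by DESeq2). At 10 weeks 7 passed, with 1 higher and 6 lower, against 27.9% of all transcripts. The water channel Aqp1 fell to 21.8 ± 8.08 CPM in IUGR islets, against 147 ± 56.2 CPM in controls (SD, n = 3; log2 fold change -2.75 ± 0.35, adjusted p = 0.00108). The calcium-activated chloride channel Ano1 fell to 8.72 ± 1.78 CPM in IUGR islets, against 36.3 ± 14.3 CPM in controls (-2.06 ± 0.28, adjusted p = 0.00144). Sctr, the receptor of the hormone secretin that drives duct bicarbonate, fell to 4.41 ± 2.99 CPM in IUGR islets, against 22.3 ± 10.2 CPM in controls (-2.34 ± 0.56, adjusted p = 0.0126). The sodium pump subunit Atp1b1 rose to 238 ± 5.44 CPM, against 145 ± 14.1 CPM (0.71 ± 0.11, adjusted p = 0.00229). The bicarbonate cotransporter Slc4a4 had a log2 fold change of -0.22 ± 0.22 (adjusted p = 0.488). Aqp1 is also made by endothelium, and endothelial markers summed to 417 to 575 CPM in IUGR islets against 616 to 1045 CPM in controls at 10 weeks. In the fit with the acinar covariate 3 of the 16 transport genes passed, all lower, against 10.9% of all transcripts in that fit.

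**Figure D4:**
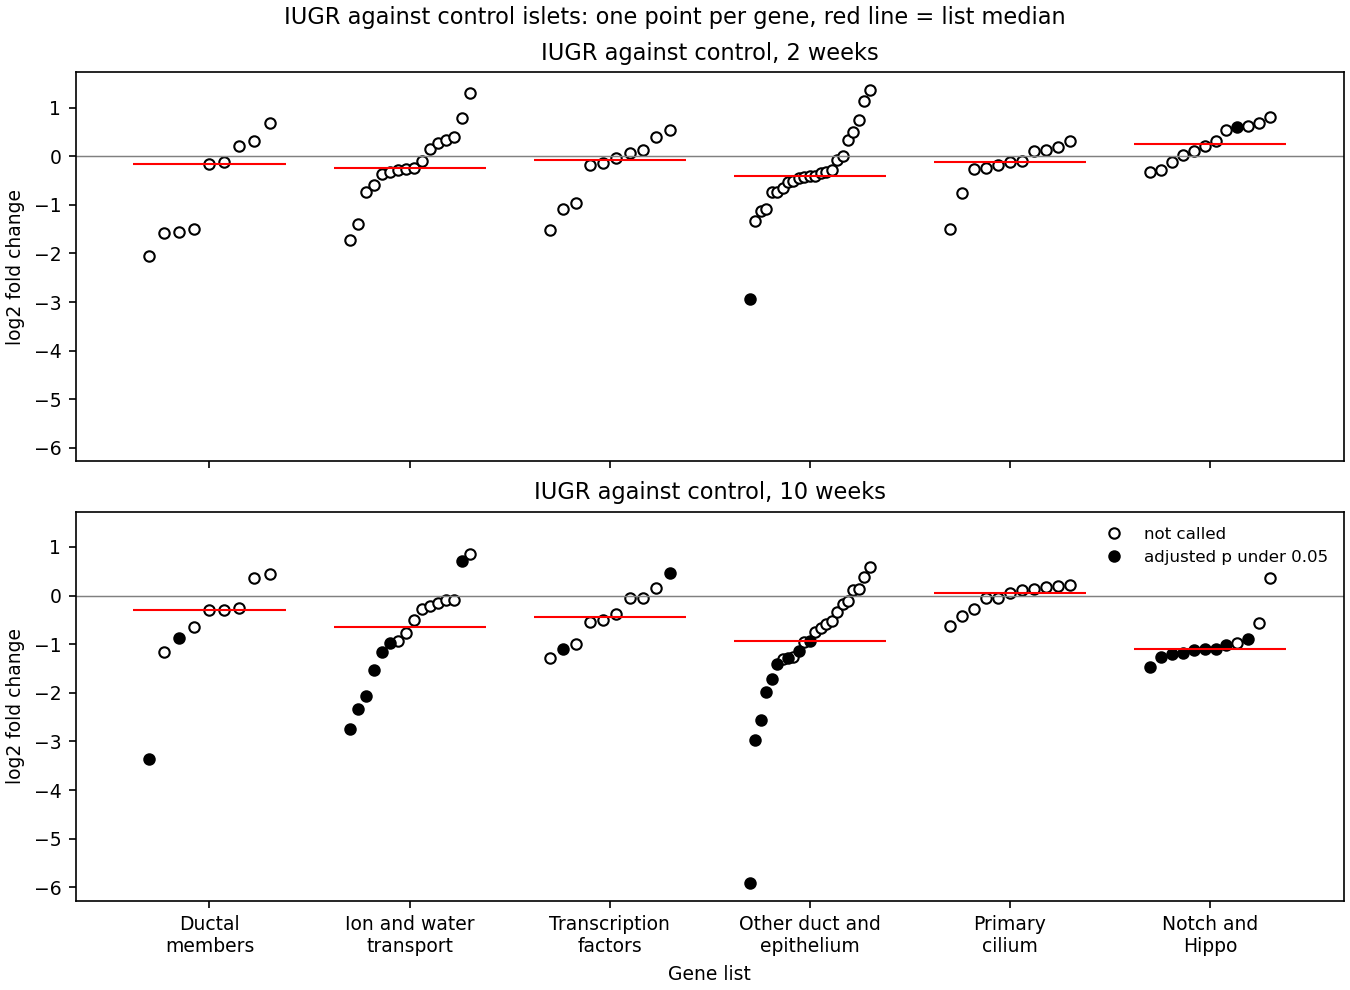
Log2 fold changes of IUGR over control at 2 weeks (top) and 10 weeks (bottom) for the 9 ductal cell genes and the genes of 5 other lists, with 1 point per gene, filled points past the adjusted threshold of 0.05 and a red line at the list median. At 10 weeks 9 of 12 Notch and Hippo genes passed as lower, and 0 of 11 cilium genes passed. Of all transcripts 27.9% passed at that age, 15.5% as lower.

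Of 10 duct transcription factors, 0 passed edgeR's test at 2 weeks (2 at an unadjusted p under 0.05, 2 by DESeq2) and 2 passed at 10 weeks, where 27.9% of all transcripts passed. With the acinar covariate, which cannot be separated from condition, 0 passed at 10 weeks (1 at an unadjusted p under 0.05). Of all transcripts 10.9% passed in that fit. Hes1, the Notch target that keeps duct progenitors from endocrine fate, fell (-1.10 ± 0.20, adjusted p = 0.00430) and Glis3 rose (0.46 ± 0.15, adjusted p = 0.0420). With age in controls 3 of these 10 passed, near the 32.3% of all transcripts. All 3 were lower at 10 weeks, among them Prox1 (-1.07 ± 0.26, adjusted p = 0.00950) and Onecut1 (-1.74 ± 0.56, adjusted p = 0.0351). Without the 10-week controls above 40% acinar share, 0 of the 10 passed edgeR's test with age in controls (2 at an unadjusted p under 0.05).

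Of 23 tested genes of 26 other duct and simple epithelium genes, 1 passed at 2 weeks and 9 at 10 weeks, all lower in IUGR islets. Of all transcripts 3.88% passed at 2 weeks (2.21% lower) and 27.9% at 10 weeks (15.5% lower). The gene of this list at 2 weeks was the trefoil factor Tff2, with 46.8 ± 12.5 CPM in IUGR islets against 356 ± 193 CPM in controls (-2.93 ± 0.66, adjusted p = 0.0458). At 10 weeks Tff2 had 4.38 ± 2.16 CPM in IUGR islets against 264 ± 182 CPM in controls (-5.91 ± 0.77, adjusted p = 0.00123), followed by Cd24 (-1.99 ± 0.36, adjusted p = 0.00404) and St14 (-1.71 ± 0.31, adjusted p = 0.00439). The general epithelial genes Krt8 (-0.16 ± 0.17), Krt18 (-0.34 ± 0.19) and Epcam (0.14 ± 0.16) did not pass, with adjusted p-values of 0.509, 0.200 and 0.544. With the acinar covariate 0 of these 23 genes passed edgeR's test at 10 weeks (4 at an unadjusted p under 0.05), against 9 without it. In that fit 10.9% of all transcripts passed, and condition cannot be separated from acinar level.

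Of 11 genes of the primary cilium and of polycystic disease, 0 passed edgeR's test at either age in IUGR against control. Of all transcripts 3.88% passed at 2 weeks and 27.9% at 10 weeks. At an unadjusted p under 0.05 there were 3 of the 11 at 2 weeks and 0 at 10 weeks. DESeq2 called 1 of them at 2 weeks and 0 at 10 weeks. Of 12 Notch and Hippo pathway genes, 1 passed at 2 weeks (the Notch ligand Dll1, higher) and 9 at 10 weeks, all lower. Among all transcripts 1.66% passed as higher at 2 weeks and 15.5% as lower at 10 weeks. The Hippo effector Yap1 fell to 3.90 ± 0.381 CPM in IUGR islets at 10 weeks, against 9.30 ± 0.871 CPM in controls (-1.25 ± 0.12, adjusted p = 0.000502). The Notch ligand Jag1 (-1.12 ± 0.16, adjusted p = 0.00166) and the Hippo target Cyr61 (-1.20 ± 0.23, adjusted p = 0.00486) fell as well. With the acinar covariate 7 of the 12 passed, all lower, against 10.9% of all transcripts in that fit. These genes are not restricted to ducts, and the fibroblast markers summed to 325 to 415 CPM in IUGR islets against 806 to 1684 CPM in controls at 10 weeks, with 7 of 9 lower. Of 10 endothelial markers 7 were lower and of 5 tested mesothelial markers 3 were lower. The summed mesothelial level was higher all the same, with 557 to 735 CPM in IUGR islets against 401 to 540 CPM in controls. The part of these cell types in the results was not tested. The medians over the lists at 10 weeks were -0.64 for transport, -0.45 for transcription factors, -0.94 for other duct genes, 0.05 for cilium genes and -1.10 for Notch and Hippo genes, against -0.01 over all transcripts.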

How the data were processed

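RNA was sequenced from islets in 12 libraries, 3 for each of IUGR and control at 2 and 10 weeks, from stranded kits after ribosomal depletion, per the labels' protocols. Values in the deposited table were whole, unnormalized read counts for each Ensembl transcript of the rat. TopHat2 2.0.9, bedtools and the builds rn5 and mm9 are named, with no role, per the submitters' processing notes. How reads were assigned to transcripts, and the strand setting, are not given in the sources used. The analysis used edgeR 4.0.16 under R 4.3.3, with 1 fit of the 4 groups (filterByExpr and TMM factors, robust quasi-likelihood F test, Benjamini-Hochberg over 20733 transcripts, threshold 0.05). Standard errors were derived from the log2 fold change and its F statistic, and 95% intervals used the t quantile. Log2 CPM used a prior count of 2. Likeness was searched among symbols with a mean log2 CPM of at least 1.

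The ductal cell genes and lists were chosen with earlier results of these data known. Every ductal cell gene is named. From the other lists the 3 genes with the smallest p at 10 weeks and with age in controls were taken, plus Sctr, Slc4a4, Hes1, Epcam, Krt8 and Krt18, of which a part is given. Some named items are not reported here. The list genes Pcsk1, G6pc2, Lyz2, Adgre1 and Acta2 were not found in the table and are not analysed here. Alternatives were DESeq2 1.42.0, RLE factors, no low-count filter, a block for replicate number, an adjusted p under 0.1, the acinar markers' mean log2 CPM as a covariate, those markers and the 20 most abundant transcripts left out, only the 6 libraries compared, 1 transcript or summed transcripts per symbol, both 10-week controls above 40% acinar share left out, and each library left out. The 10-week fit with 1 control left assumes that it varies like the other groups. Simulated counts with known changes were run through the fits. Apart from those changes all groups shared the same mean profile, so the simulation lacks the acinar difference of these libraries. Its outcome is not reported here. Depth was 30.4 to 64.2 M counts per library. Replicates differed well beyond sampling noise (chi-square per degree of freedom 31.7 to 1131), so none was counted as a repeat of another.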

Additional observations from a re-analysis of the deposited data

Results flagged for a closer look

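No ductal cell gene differed between the ages in its response to IUGR past the threshold. Among the named genes of the duct lists, 6 did by edgeR's test of that difference. Each had a more negative log2 fold change of IUGR over control at 10 weeks than at 2 weeks. The named genes include those with the smallest p at 10 weeks, a comparison that forms part of this difference, so such hits were favoured. The whole lists gave 3 of 16 transport genes, 1 of 10 transcription factors and 1 of 23 other duct genes. They also gave 0 of 11 cilium genes and 5 of 12 Notch and Hippo genes. Of all transcripts 14.3% passed, 10.4% as lower. For Aqp1 the difference was -3.53 ± 0.47 (SE, adjusted p = 0.00238). It had 16.5, 31.1 and 17.7 CPM in IUGR islets against 81.8, 183 and 175 CPM in controls at 10 weeks, and 102, 133 and 127 CPM in IUGR islets against 50.6, 75.1 and 85.6 CPM in controls at 2 weeks. The IUGR group was thus below the controls at 10 weeks and above them at 2 weeks, without overlap at either age. For Ano1 the difference was -1.32 ± 0.38 (adjusted p = 0.0417), with IUGR below control at both ages. For Hes1 it was -1.50 ± 0.28 (adjusted p = 0.00733), for Jag1 -1.67 ± 0.22 (adjusted p = 0.00241), for Yap1 -1.45 ± 0.17 (adjusted p = 0.00185) and for Cyr61 -1.90 ± 0.32 (adjusted p = 0.00543). Endothelial markers (8 of 10 lower) and fibroblast markers (8 of 9 lower) also passed in this difference, and their part in these results was not tested.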

How the results depend on the processing

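The number of ductal cell genes past the threshold depended on the setting. For IUGR at 2 weeks it was 0, but 4 with DESeq2, 3 at an adjusted p under 0.1 (14.6% of transcripts), 1 without the 10-week controls above 40% acinar share, and 0 to 3 with 1 library left out. For IUGR at 10 weeks it was 2, but 1 with only the 6 libraries, 1 without those controls, 0 with the acinar covariate, 4 at an adjusted p under 0.1 (38.1%), and 1 to 5 with 1 library left out. For the difference between the ages it was 0 under every alternative listed in the methods that was fitted; the 6-library fit does not give it. For age in controls it was 1, but 2 with the covariate, 3 at an adjusted p under 0.1 (42.4%), and 0 to 2 with 1 library left out. For age in IUGR islets it was 5, but 4 without the low-count filter, 4 with only the 6 libraries, 1 with the covariate and 1 to 5 with 1 library left out. The cause was not tested. Among all transcripts the count for IUGR at 2 weeks was 804, but 3212 with DESeq2, 0 with the covariate, 0 with only the 6 libraries and 149 without the filter. It ran from 0 without IUGR replicate 1 or 3 at 2 weeks to 2350 without control replicate 3 at 2 weeks, and the share higher was 55.7% with DESeq2 and 42.9% in the edgeR fit. For IUGR at 10 weeks it ran from 2255 to 7021, for the difference from 1759 to 4983 and for age in controls from 3448 to 7822.

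The correlations do not settle whether replicate numbers pair the samples. Of 18 pairs of same-numbered libraries 8 deviated together with a correlation over 0.1, and the pairs ran from -0.14 to 0.48. The largest were between controls of 2 and 10 weeks, with 0.48 for replicate 2 and 0.39 for replicate 1, against 0.0010 for replicate 3. Differently numbered pairs ran from -0.46 to 0.31. The main fit took the libraries as unpaired. With the replicate block 1 ductal cell gene passed for IUGR at 10 weeks (Tspan8 was lost) and 3 passed for age in IUGR islets (Cldn4 and Prom1 were lost), where Spp1 took -0.066. The block moved the count of all transcripts for IUGR at 2 weeks to 1223.

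Of the 981 refitted log2 fold changes of the 9 genes, 891 kept their sign and their side of the threshold, 39 lost and 19 gained a call, and 32 changed sign. With the acinar covariate, sign changes for IUGR were Muc1 0.29 and Prom1 0.095 at 2 weeks, Cftr 1.53, Spp1 0.37, Muc1 1.39 and Prom1 0.13 at 10 weeks, Krt7 -0.061, Muc1 1.10 and Prom1 0.040 in the difference, and Cftr 0.78 for age in IUGR islets. The covariate did not overlap between IUGR and control libraries at either age, so that fit cannot separate condition from acinar level. Without the 10-week controls above 40% acinar share Muc1 took 0.48 in the difference. With each library left out in turn, ranges that crossed 0 were, for IUGR at 2 weeks, Krt19 -0.056 to 0.32. For IUGR at 10 weeks they were Sox9 -1.31 to 0.072 and Cldn4 -0.58 to 0.063. In the difference they were Krt19 -0.20 to 0.42, Krt7 -0.10 to 0.35, Cftr -0.095 to 1.41 and Spp1 -0.21 to 0.82. For age in controls they were Krt19 -0.093 to 0.22, Spp1 -0.57 to 0.073, Cldn4 -0.16 to 0.35 and Tspan8 -0.42 to 0.014. For age in IUGR islets they were Krt19 -0.12 to 0.50, Cftr -1.18 to 0.22 and Spp1 -0.58 to 0.46. Depth limits Sox9 most, with 14 to 199 counts a library. It also limits Muc1 in IUGR islets at 10 weeks, with 14 to 87 counts.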
